A study of Mus musculus with 3 samples.

Results

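The 36 nucleolar and ribosome biogenesis genes described here were listed by symbol, and all 36 were found among the 32285 genes of the files. They were followed in E14 embryonic stem cells of the mouse (129/Ola background), grown in serum with leukaemia inhibitory factor and measured by droplet single-cell RNA sequencing. Treatment was 10 uM tubercidin, an adenosine analogue, lasting 3 h or 6 h, while DMSO alone was given for 6 h as the control. A DMSO library of the 3 h time was not analysed here. Each condition was 1 library, so differences are given without a test and may include variation between cultures. Intervals are exact 95% intervals and cover counting error only.

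Ribosomes are assembled in the nucleolus around a long precursor RNA that RNA polymerase I transcribes from the ribosomal DNA. Small nucleolar ribonucleoproteins of the box C/D class guide methylation of this RNA and those of the box H/ACA class guide pseudouridylation, and assembly factors then fold, cut and export the small and the large subunit. Stem cells divide quickly and keep large nucleoli, and many of the genes are known targets of MYC proteins, which bind the E-box CACGTG.

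Several members carry small nucleolar RNA genes inside their introns, so that 1 transcript holds both a protein of the pathway and the guide RNAs that the pathway uses. In GENCODE M21 (GRCm38, the assembly also called mm10, which the submitters' processing notes name), 21 such genes lay on the same strand inside 7 of the 36 members: Ncl, Nop56, Nop58, Dkc1, Wdr43, Gnl3 and Tsr1. Polyadenylated RNA was captured, so the guide RNAs themselves were not measured. The sequences of 3 of them, hosted by 3 members whose values are given below, are shown as GENCODE gives them, 5′ to 3′, with the box C core TGATGA and the last CTGA, the letters of box D, in capitals.
Snord110, inside Nop56, chr2:130275506-130275573, plus strand: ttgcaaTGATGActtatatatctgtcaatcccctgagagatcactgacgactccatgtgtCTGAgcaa
Snord11, inside Nop58, chr1:59704790-59704873, plus strand: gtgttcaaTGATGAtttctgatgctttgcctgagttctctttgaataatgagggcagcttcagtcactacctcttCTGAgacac
Snord82, inside Ncl, chr1:86356261-86356330, minus strand: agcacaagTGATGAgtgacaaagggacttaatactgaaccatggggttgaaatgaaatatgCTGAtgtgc

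RefSeq promoter windows (GRCm38.p6, 250 bases before to 50 after the annotated start) were matched by symbol for 31 of the 36 members, taking the first window listed for a gene. The E-box CACGTG, which reads the same on both strands, was present in 7 of these 31 windows (22.6%), against 7.24% of all 27025 promoters and 11.3% of the 6302 promoters of genes tested here. The 8 letters CCGGAAGT, an ETS-type motif, searched on both strands, were in 8 of 31 (25.8%), against 4% of all promoters and 10.8% of those of tested genes. The CCAAT box was in 38.7% of the members' windows and in 40.3% of those of tested genes, on either strand. Of the 7 windows with an E-box 3 are shown, with the E-box in capitals, because their genes differed widely at 6 h, from the lowest ratio of the set (Rpp38) to a ratio above the control (Pes1).
Rpp38, chr2:3332579-3332878, minus strand: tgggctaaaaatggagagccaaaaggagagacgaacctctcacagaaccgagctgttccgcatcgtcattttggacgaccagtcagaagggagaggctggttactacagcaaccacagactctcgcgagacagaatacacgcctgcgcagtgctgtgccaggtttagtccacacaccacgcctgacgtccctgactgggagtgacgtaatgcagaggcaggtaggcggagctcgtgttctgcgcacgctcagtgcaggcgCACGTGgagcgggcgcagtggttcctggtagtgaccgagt
Mybbp1a, chr11:72441077-72441376, plus strand: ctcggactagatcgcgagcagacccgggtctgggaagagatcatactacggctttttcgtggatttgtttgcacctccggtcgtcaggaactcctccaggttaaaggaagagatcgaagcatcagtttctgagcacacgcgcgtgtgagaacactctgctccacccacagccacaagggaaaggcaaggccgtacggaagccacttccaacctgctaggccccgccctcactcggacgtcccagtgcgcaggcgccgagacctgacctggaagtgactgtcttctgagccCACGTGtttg
Pes1, chr11:3963725-3964024, plus strand: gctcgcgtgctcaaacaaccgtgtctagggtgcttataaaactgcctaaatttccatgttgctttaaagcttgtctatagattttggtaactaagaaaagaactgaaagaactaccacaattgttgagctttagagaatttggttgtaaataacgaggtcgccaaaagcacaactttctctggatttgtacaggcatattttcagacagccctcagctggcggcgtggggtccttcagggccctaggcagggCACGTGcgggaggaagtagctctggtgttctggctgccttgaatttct
For the 7 members with an E-box the 3 h and 6 h medians of the log2 ratio defined below were -0.03 and 0.05, and for the 24 without one they were -0.25 and -0.10. A match of letters describes the window and says nothing of binding.

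The DMSO library had 2031 called cells with 104892739 unique molecular identifiers (UMIs, tags that mark captured RNA molecules), the 3 h library 2365 cells with 29892000 and the 6 h library 2926 cells with 24681924. Compared with DMSO, the median cell had 4.08-fold fewer UMIs after 3 h and 6.05-fold fewer after 6 h, and in this RNA content and sequencing depth cannot be told apart. Any pair of libraries shared 1 cell barcode. Of 8 stem cell markers 7 had a mean of at least 10 CPM (the UMIs of a gene scaled to 1 common library total). Pou5f1 was at 137, 159 and 213 CPM (DMSO, 3 h and 6 h, an order kept below), whereas Dppa3 was at 8.04, 6.99 and 5.11 CPM. The 7 markers differed in direction, with 4 above DMSO and 3 below at 3 h, and 2 above and 5 below at 6 h. Of all genes tested 72.6% were below DMSO at 3 h and 60.3% at 6 h. Sox2 went from 205 CPM in DMSO to 80.6 after 3 h and 81.1 after 6 h. Zfp42 (712, 437 and 455 CPM) and Nanog (77.4, 62.4 and 50.2 CPM) were also lower in both treated libraries. Esrrb (102, 130.5 and 193 CPM), like Pou5f1, was higher in both. Tdgf1 (226, 370 and 223 CPM) and Dppa5a (2549, 3555 and 2263 CPM) were higher at 3 h and lower at 6 h. The 16 markers of fibroblasts, primitive endoderm and trophoblast all had means under 10 CPM. The highest of them was Gata4, at 5.23, 4.75 and 7.33 CPM, and Lum, Col3a1, Col1a2, Sox17 and Hand1 had no UMI in at least 1 library.

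Taken as a set, the 36 genes held a slightly smaller share of the captured RNA after tubercidin than in DMSO. Of all UMIs they took 1.66% in control cells, with a Clopper-Pearson interval from 1.656 to 1.661%. The 3 h library had 1.40% (1.393 to 1.401%) and the 6 h library 1.54% (1.537 to 1.547%). These 3 intervals did not overlap, and the 3 h library was lowest. Most of these UMIs came from Npm1 and Ncl, which supplied 56.2%, 52.9% and 52.6% of them. Without these 2 genes the share was 0.726% in DMSO, 0.659% after 3 h and 0.731% after 6 h, so the set without its 2 largest members was as high at 6 h as in the control.

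All 36 members passed the minimum of a mean of 10 CPM over the libraries, which 7884 genes passed in all. Changes are given as log2 ratios of CPM + 1, a scale that understates the change of low genes. At 3 h the members' median was -0.11, with a range from -1.39 to 0.82, and the median of all genes tested was -0.27. At 6 h it was -0.06, with a range from -2.41 to 0.56, against -0.12 for all genes. Between 3 h and 6 h the members' median was 0.08 and that of all genes 0.14. The sign of the members' median at 3 h turned to 0.12 with median-of-ratios size factors and to 0.08 with TMM factors, while all genes then stood at -0.04 and -0.09, so its direction depends on the scaling. Relative to the median of all genes, 21 members lay above and 15 below at 3 h, and 19 above and 17 below at 6 h.

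Few members differed by 2-fold or more, as was true of all genes tested. One member, Rpp38, was at least 2-fold lower at 3 h (background 5.54% of genes tested) and 0 were at least 2-fold higher (background 0.888%). At 1.5-fold, 7 members were lower (background 24.5%) and 1, Fbl, was higher (background 3.61%). The lower ones were Ncl, Ddx21, Ddx18, Rpp38, Ebna1bp2, Mphosph10 and Nip7, and with TMM factors 4 of them, Ddx18, Rpp38, Ebna1bp2 and Mphosph10, passed. At 6 h Rpp38 and Nip7 were at least 2-fold lower (background 4.41%) and 0 were 2-fold higher (background 2.33%). The 1.5-fold rule then gave 5 lower members, Rpp38, Nip7, Ebna1bp2, Gar1 and Mphosph10 (background 16.9%), and 0 higher ones (background 7.06%). A ratio above 0 was found for 13 of the 36 at 3 h (background 27.4%) and for 17 at 6 h (background 39.7%). With median-of-ratios or TMM factors the first count became 21 or 20 while the second stayed at 17. The shares of all genes above 0 with these factors were not computed, so the new counts cannot be set against 27.4% or 39.7%. The median of all genes at 3 h also moved, from -0.27 to -0.04 or -0.09.

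**Figure D1:**
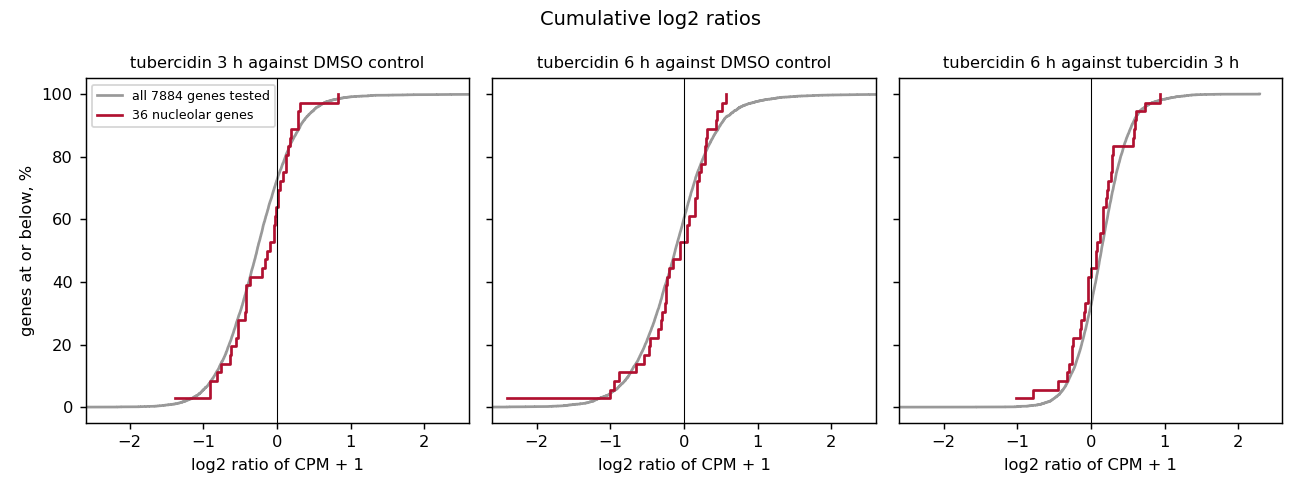
Cumulative percentage of genes (vertical axis) at or below each log2 ratio of CPM + 1 (horizontal axis) for the 36 nucleolar genes and all 7884 genes tested, in the 3 comparisons. The members' curves run close to those of all genes, with medians of -0.11 against -0.27 at 3 h, -0.06 against -0.12 at 6 h and 0.08 against 0.14 between the treated libraries.

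These ratios are relative to each library's total. Counted as UMIs per cell without scaling, all 36 members were lower than in DMSO by 2-fold or more at both times, as were 98.7% of all genes tested at 3 h and 99.2% at 6 h. Where a member is called higher below, the word therefore refers to its share of the RNA.

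Of the 7 scaffold, chaperone and RNA polymerase I genes of the nucleolus, 6 lay below 0 at 3 h (72.6% of all genes tested) and 3 at 6 h (60.3%), with medians of -0.42 and 0.15. Npm1, which encodes nucleophosmin, a histone and assembly chaperone that forms much of the outer nucleolus, was the most abundant member, at 5481 CPM in DMSO, 4885 after 3 h and 4415 after 6 h. Its log2 ratios were -0.17 and -0.31, the first of which turned to 0.03 with TMM factors. Mouse processed pseudogenes resemble the Npm1 transcript, so its count is uncertain. Ncl encodes nucleolin, an RNA-binding protein of the same compartment, and lies at chr1:86344719-86359400. Its level was 3844 CPM in DMSO, 2499 after 3 h and 3695 after 6 h, log2 ratios of -0.62 (interval -0.63 to -0.61) and -0.06 (-0.07 to -0.05). The 3 h library was thus the low one, and the 6 h library was close to the control.

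Ddx21, an RNA helicase that links RNA polymerase I transcription and rRNA processing, had the highest ratio of the set between 3 h and 6 h. It lies at chr10:62580251-62602281 and was at 560 CPM in DMSO, 358 after 3 h and 685 after 6 h. The 3 h ratio was -0.64 (interval -0.67 to -0.61), the 6 h ratio 0.29 (0.27 to 0.32), and the ratio was 0.93 (0.90 to 0.97) between the treated libraries, where 98% of the genes tested had a lower ratio. Nolc1, the nucleolar phosphoprotein Nopp140 that accompanies small nucleolar ribonucleoproteins, was at 409, 318 and 482 CPM. Mybbp1a, a nucleolar MYB-binding protein, was at 372, 275 and 412 CPM. In both genes the 3 h library was lowest and the 6 h library highest. Gnl3, nucleostemin, a GTPase abundant in stem cells, was at 330, 246 and 286 CPM, below the control at both times. Ubtf, the factor that opens ribosomal DNA for RNA polymerase I, was at 166, 168 and 188 CPM. Its interval included 0 at 3 h, from -0.03 to 0.06, and lay above 0 at 6 h, from 0.13 to 0.22.

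**Figure D2:**
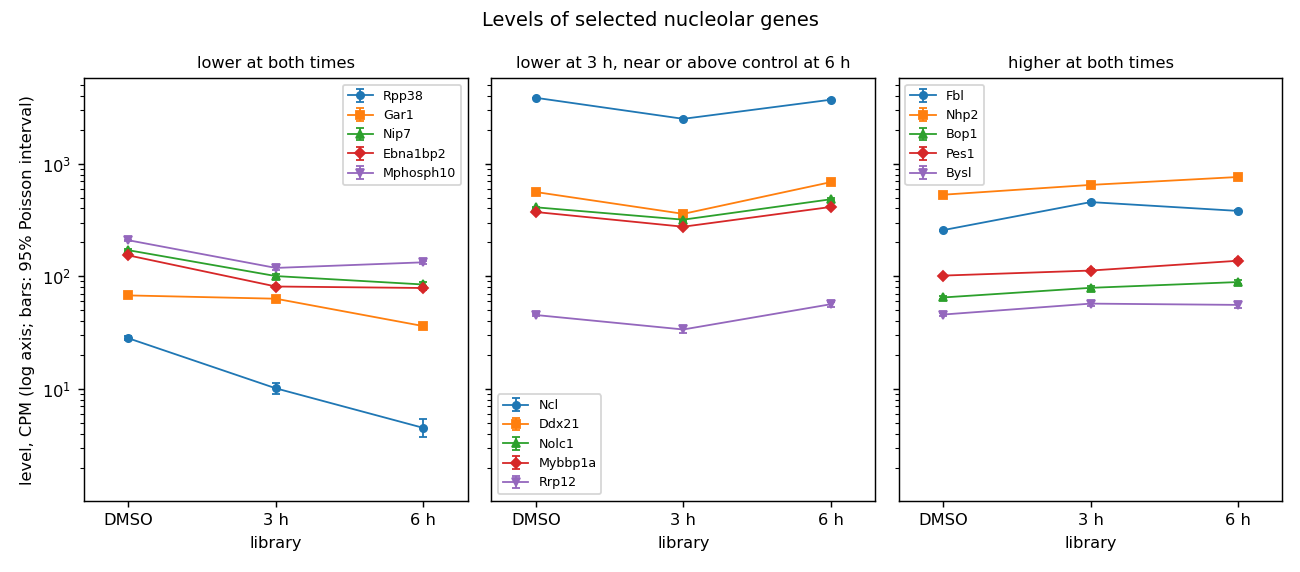
Levels in CPM (vertical log axis, bars for 95% Poisson counting intervals) in the DMSO, 3 h and 6 h libraries for 15 members chosen after their values were seen, in 3 panels by pattern. Rpp38 goes from 28.1 to 10.1 and 4.50 CPM, Ddx21 from 560 to 358 and 685 CPM, and Fbl from 257 to 455 and 380 CPM. Gar1, drawn as lower at both times, had a log2 ratio of 0.09 at 3 h with TMM factors.

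Among the box C/D proteins the methyltransferase was higher after treatment and its scaffold partner Nop56 was not. Fbl encodes fibrillarin, the methyltransferase of this class, and lies at chr7:28169710-28179269. Its level was 257 CPM in DMSO, 455 after 3 h and 380 after 6 h, log2 ratios of 0.82 (interval 0.80 to 0.86) and 0.56 (0.53 to 0.60). Both treated libraries were above the control, and at 3 h 98.5% of the genes tested had a lower ratio. Nop56, a core scaffold of the same particle, was at 327, 245 and 224 CPM, log2 ratios of -0.42 and -0.55. Nop58, its paralogue in the particle, was at 408, 467 and 392 CPM, so that the 3 h library was highest. Rrp9, which belongs to the U3 particle, was at 112, 122 and 115 CPM. Fbl thus lay 1.24 above Nop56 on the log2 ratio scale at 3 h and 1.11 above it at 6 h, although both proteins sit in 1 particle.

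Of the box H/ACA proteins, Gar1 had the lowest ratio, at 6 h. Gar1, a subunit that helps release the modified RNA, was at 67.6 CPM in DMSO, 63.1 after 3 h and 36.1 after 6 h. The 3 h ratio was -0.10 (interval -0.17 to -0.02), the 6 h ratio -0.89 (-1.01 to -0.80), and the ratio was -0.79 between the treated libraries, where 0.558% of the genes tested were lower. With TMM factors the 3 h ratio turned to 0.09 and the 6 h ratio was -0.92. In the barcodes not called as cells Gar1 was at 61.2, 57.5 and 55.2 CPM. At 6 h this was above its level in cells, by a log2 ratio of 0.60 (interval 0.41 to 0.82), and the cause was not tested. Nhp2, an RNA-binding subunit, was at 530, 647 and 761 CPM, log2 ratios of 0.29 and 0.52, and was highest at 6 h. Dkc1, dyskerin, the pseudouridine synthase, was at 307, 298 and 323 CPM, and Nop10, its small partner, was at 680, 658 and 615 CPM. The 4 subunits of this particle therefore ranged from -0.89 to 0.52 at 6 h, after a range from -0.10 to 0.29 at 3 h.

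Small subunit assembly was represented by 9 genes, with a median of -0.42 at 3 h and -0.24 at 6 h. Of these 7 lay below 0 at 3 h and 5 at 6 h, against 72.6% and 60.3% of all genes tested, so the counts are near the background. With TMM factors the 3 h median was -0.23. Mphosph10, a component of the complex that holds the U3 RNA on the precursor, was the lowest of them, at 209 CPM in DMSO, 119 after 3 h and 133 after 6 h, log2 ratios of -0.81 and -0.65. Wdr75 and Heatr1, which act where transcription by RNA polymerase I meets processing, had log2 ratios of -0.54 and -0.53 at 3 h and of -0.47 and -0.24 at 6 h. Wdr43, of the same subcomplex, differed from them, at 280, 317 and 317 CPM and a log2 ratio of 0.18 at both times. Nop14, which acts with the U3 particle on the early small subunit precursor, was at 202, 137 and 158 CPM. Rrp12, needed for export of the pre-40S particle, was at 45.3, 33.7 and 56.4 CPM, so the 3 h library was low and the 6 h library high. Bysl, a late 40S factor, was above the control at both times, at 45.7, 57.1 and 55.6 CPM. The interval of Tsr1, a GTPase-like late factor, included 0 at both times, and Ltv1, a 40S export adaptor, was at 81.2, 70.2 and 68.5 CPM.

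Over the 11 large subunit assembly genes the 3 h and 6 h medians were 0.02 and -0.23, and members differed widely. The subunits of the PeBoW complex, which processes the precursor of the large subunit RNA, were above the control at 6 h. Pes1 was at 101, 112 and 137 CPM, Bop1 at 64.8, 78.9 and 88.8 CPM and Wdr12 at 128, 117 and 142 CPM. Their log2 ratios at 6 h were 0.43, 0.45 and 0.14. Wdr12 was below the control at 3 h, by a log2 ratio of -0.13 that turned to 0.06 with TMM factors.

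Nip7, Ebna1bp2 and Ddx18 of the same group were below the control at both times. Nip7, which acts on pre-60S particles and lies at chr8:107056877-107060931, was at 170 CPM in DMSO, 100 after 3 h and 84.4 after 6 h. Its log2 ratios were -0.76 (interval -0.82 to -0.71) and -1.004 (-1.08 to -0.95). Ebna1bp2, a scaffold of early pre-60S particles, was at 153, 81.0 and 78.6 CPM, log2 ratios of -0.91 and -0.95. The interval of the 6 h ratio against 3 h lay below 0 for Nip7 (-0.33 to -0.17) and included 0 for Ebna1bp2 (-0.13 to 0.04). Ddx18, a helicase of the same pathway, was at 289, 153 and 235 CPM, so its 3 h ratio of -0.92 had become -0.30 at 6 h. Rrs1, which helps bring the 5S RNA particle into the large subunit, at 73.1, 72.6 and 52.8 CPM, and Brix1, an early pre-60S factor, at 230, 245 and 196 CPM, had log2 ratios of -0.01 and 0.09 at 3 h and of -0.46 and -0.23 at 6 h. With TMM factors the 3 h ratios were 0.18 and 0.28 and the 6 h ratios -0.49 and -0.27. Nop2, an rRNA methyltransferase, was at 58.3, 60.1 and 48.7 CPM, Nop16, another pre-60S factor, at 67.8, 68.7 and 83.7 CPM, and Rrp1b, a nucleolar relative of yeast Rrp1, at 172, 187 and 197 CPM.

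Rpp38 had the lowest ratio of the set at both times and was also its least abundant member. It encodes a protein subunit of RNase P, which trims precursor tRNA, and of RNase MRP, which cuts the ribosomal precursor RNA. The gene has 2 exons at chr2:3328949-3332643 on the minus strand. Called cells held 2951 of its UMIs in DMSO, 302 after 3 h and 111 after 6 h, which is 28.1, 10.1 and 4.50 CPM. The 3 h log2 ratio was -1.39 (interval -1.65 to -1.31), the 6 h ratio -2.41 (-2.93 to -2.37), and the ratio was -1.01 between the treated libraries. Of the genes tested, 1.01% had a lower ratio at 3 h and 0.0507% at 6 h. The other 10 subunits of the 2 enzymes listed had medians of -0.13 and 0.01, which turned to 0.05 and -0.02 with TMM factors. At 6 h 1 of them, Pop7, was at least 2-fold lower (background 4.41%), at 29.0, 17.0 and 11.9 CPM. Rpp25l followed at -0.55 and -0.67. Higher values belonged to Rpp21, at 0.29 and 0.52, to Rpp40 at 3 h, at 0.57, and to Rpp25 at 6 h, at 0.47.

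**Figure D3:**
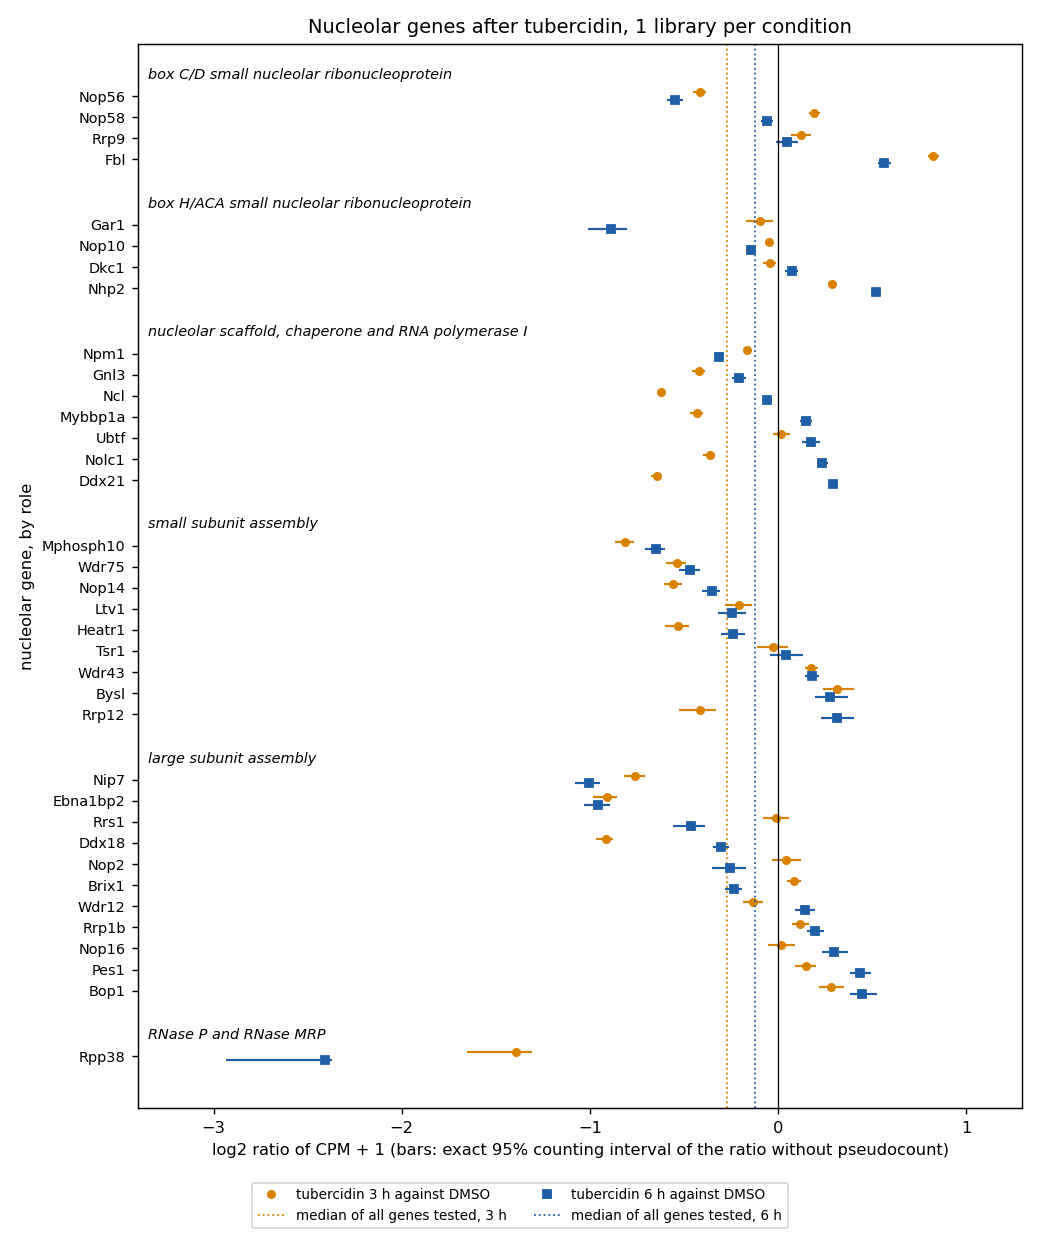
Log2 ratios of CPM + 1 against the DMSO control (horizontal axis) for the 36 members grouped by role (vertical axis), circles for 3 h and squares for 6 h, with bars for exact 95% counting intervals and dotted lines for the medians of all genes tested. Rpp38 lies far to the left at -1.39 and -2.41, and Fbl lies farthest to the right at 0.82 and 0.56.

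Set side by side, 10 members were above the control at both times, 16 were below at both and 10 had opposite signs. Over all genes tested the shares were 22.5%, 55.4% and 22.1%. The sign of 8 members at 3 h, of 0 at 6 h and of 10 between the treated libraries depended on whether totals, median-of-ratios or TMM factors were used. The share of all genes with such a sign was not computed. Median-of-ratios and TMM factors moved the median of all genes by 0.23 and 0.19 at 3 h and by 0.01 and -0.03 at 6 h. Between the treated libraries they moved it by -0.22 and -0.21. Both comparisons with DMSO use the same control library. Against 3 h, the 6 h library had 4 members at least 1.5-fold higher (background 8.51%), Ddx21, Rrp12, Ddx18 and Nolc1, and 2 at least 1.5-fold lower (background 1.67%), Gar1 and Rpp38. Of these Rpp38 passed 2-fold (background 0.165%), and 0 members were 2-fold higher (background 1.64%). With TMM or median-of-ratios factors 1 member, Ddx21, stayed at least 1.5-fold higher (background 3.07% and 3%), and 2, Rpp38 and Gar1, were at least 2-fold lower (background 0.571% and 0.572%).

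The members were compact genes with many exons. Their principal transcripts had a median of 13 exons and a median total intron length of 8896 bases, against 10 exons and 21848 bases for the 7679 annotated protein-coding genes tested. Across all these genes the median 3 h ratio went from -0.07 in the lowest of 4 equal classes of intron length to -0.41 in the highest. The members in the first 3 classes, 16, 14 and 6 genes, had 3 h medians of -0.23, -0.09 and -0.15, and the highest class held 0 members, so no such order was seen among them. Between 3 h and 6 h, the length of the mature transcript went with the ratio among the members, with a Spearman rho of 0.54 over 36 genes, against 0.39 over all 7679. The points share the same 2 libraries. This was the highest of the 12 correlations computed for the members. In the same comparison exon number gave 0.50 for the members and 0.38 for all genes. Intron length gave 0.35 and 0.40, and 3' UTR length 0.21 and 0.17. The 3 lowest members, Rpp38, Gar1 and Rrs1, have 1042, 1271 and 2048 bases, and the 3 highest, Ddx21, Rrp12 and Ddx18, have 4722, 4340 and 2258. Nhp2, which has 1042 bases like Rpp38, was at 0.23. For the 7 members with nested small nucleolar RNA genes the 3 h and 6 h medians were -0.04 and -0.06, and for the other 29 they were -0.13 and -0.14.

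**Figure D4:**
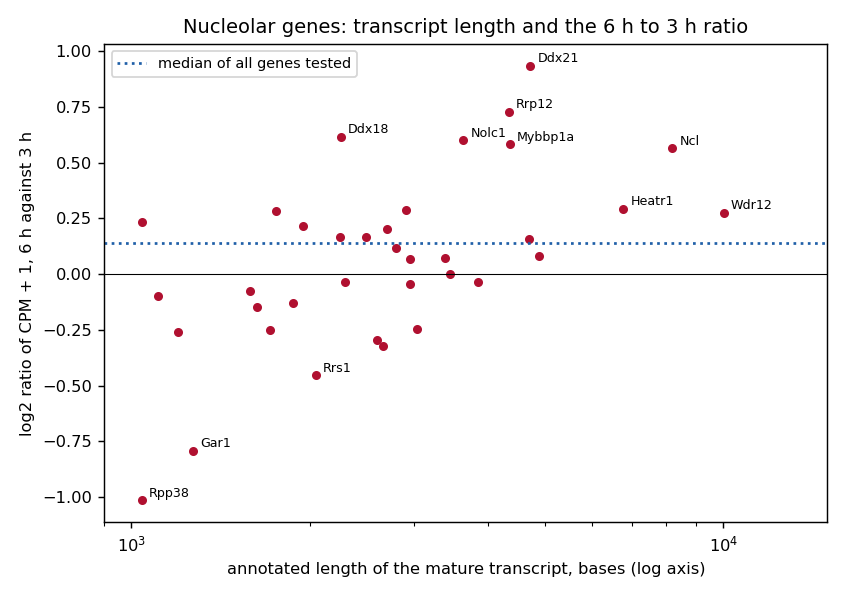
Annotated length of the mature transcript in bases (horizontal log axis) and log2 ratio of CPM + 1 at 6 h against 3 h (vertical axis) for the 36 members, each a point, with a dotted line for the median of all genes tested. Rpp38 lies lowest (1042 bases, -1.01) and Ddx21 highest (4722 bases, 0.93), but Nhp2, as short as Rpp38, lies at 0.23.

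Some members overlap a gene on the other strand, and the use of strand in counting is not given in the sources used here. Among such pairs with an abundant partner, Rrp1b overlaps Hsf2bp, which was at 108, 118 and 117 CPM, Bysl overlaps Ccnd3, at 181, 221 and 245 CPM, and Gnl3 overlaps Pbrm1, at 145, 95.6 and 129 CPM. Nop56 overlaps Idh3b, at 90.2, 100 and 85.1 CPM. The values of these 4 members are uncertain to that extent. Expressed genes on the same strand also end shortly before some members. Chd4, at 315, 193 and 409 CPM, ends 1318 bases before Nop2. Cltb, at 94.5, 133.5 and 147 CPM, ends 2311 bases before Nop16, and Pprc1, at 52.85, 54.2 and 51.3 CPM, 2948 bases before Nolc1. Whether their RNA adds to the counts of these members was not tested.

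The order of the libraries was the same in single cells as in the sums. Each cell was thinned to 4000 UMIs, and shallower cells, 0 of the control, 122 of the 3 h and 284 of the 6 h library, were set aside. The median thinned cell then held 66 UMIs of the 36 genes in DMSO, 55 after 3 h and 61 after 6 h. The 10th to 90th percentiles were 51 to 81, 43 to 69 and 46 to 78, so the libraries overlapped widely. Unthinned, the median cell held 811, 166 and 121 such UMIs, and 0 cells of any library lacked one. Within a library the share differed little with depth. Over 4 equal classes of cells by UMIs it ranged from 1.62 to 1.69% in DMSO, from 1.36 to 1.41% after 3 h, and from 1.47 to 1.56% after 6 h.

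**Figure D5:**
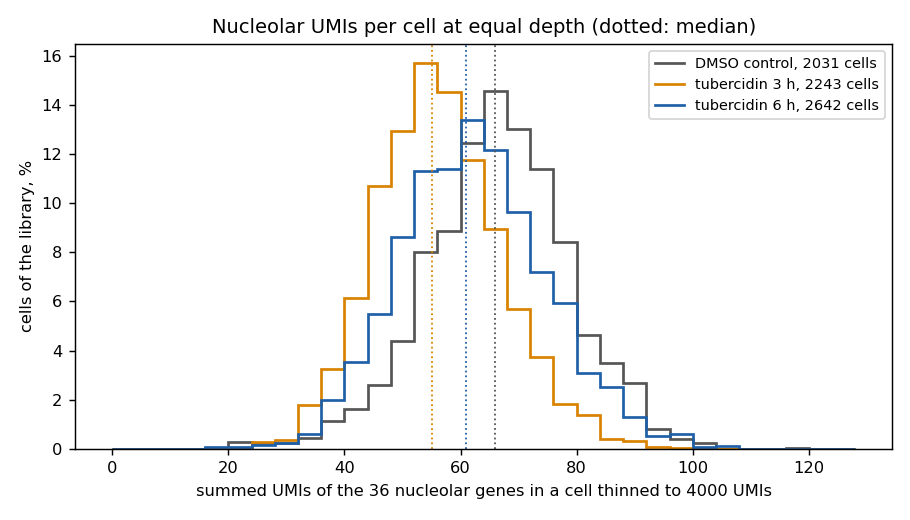
Percentage of cells (vertical axis) by the summed UMIs of the 36 members in a cell thinned to 4000 UMIs (horizontal axis), with a dotted line at the median of each library. The 3 h curve lies to the left with a median of 55, and the 6 h and control curves have medians of 61 and 66.

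For Rpp38, Gar1 and Fbl the cells with at least 1 UMI were counted at equal depth. These counts use the same UMIs as the ratios, so they are not separate evidence. Rpp38 was seen in 9.80% of control cells, with a Clopper-Pearson interval from 8.54 to 11.2%, in 3.39% of 3 h cells (2.68 to 4.22%) and in 1.67% of 6 h cells (1.21 to 2.23%). Unthinned, where the median cell had 48452, 11877 and 8004 UMIs, these shares were 72.9%, 11.6% and 3.69%. The 7 fibroblast markers together, which these cells should lack, were seen in 0.443%, 0.669% and 0.984% of thinned cells, as a rough level of background. The figure sums 7 genes and may include low true expression, which was not tested. The 6 h interval of Rpp38 overlaps that of these markers, 0.644 to 1.44%. The level of Rpp38 at 6 h was the same in the barcodes outside cells, at 4.50 CPM, as in cells. Outside the cells of the control and the 3 h library Rpp38 was at 21.7 and 7.30 CPM, so the order of the libraries was the same there. The part of free RNA in the Rpp38 values was not tested beyond this. Gar1 was seen in 21.9%, 22.1% and 13.8% of thinned cells and Fbl in 63.6%, 82.7% and 77.9%. In the unthinned cells Fbl was seen in 99.9%, 94.1% and 90.2%, which is the order of depth and not that of its CPM.

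Related genes outside the set were followed in the same way. Of 112 other ribosome biogenesis genes in the files, 109 passed the minimum, and the 3 h and 6 h medians were -0.22 and -0.17. With TMM factors these medians were -0.03 and -0.20. At 3 h 1 was at least 2-fold higher (background 0.888%) and 3 lower (5.54%), and at 6 h 0 (2.33%) and 2 (4.41%). At 1.5-fold the counts were 3 higher (background 3.61%) and 21 lower (24.5%) at 3 h, and 5 (7.06%) and 12 (16.9%) at 6 h. Abt1, a nucleolar activator of transcription, was at 41.2, 12.2 and 15.9 CPM, and Exosc3, a subunit of the RNA exosome, at 60.9, 23.9 and 21.8 CPM. At the other end Ddx56, a helicase, was at 36.3, 77.1 and 60.5 CPM, Rrp7a at 42.5, 77.7 and 71.5 CPM, and Utp20, a large small-subunit factor, at 128, 115 and 212 CPM. Over the 14 genes of RNA polymerase I and its factors the medians were -0.06 and 0.02, and with TMM factors they turned to 0.13 and -0.01. Of these genes 1 was at least 1.5-fold lower at 3 h (background 24.5%) and, at 6 h, 2 were lower (16.9%) and 1 higher (7.06%). Taf1b and Ttf1 were lowest at 3 h, at -0.61 and -0.35, and Polr1e and Taf1d highest, at 0.52 and 0.19. At 6 h Twistnb and Znrd1, both subunits of the polymerase, were lowest, at -0.87 and -0.63, and Ttf1 and Polr1a highest, at 0.66 and 0.42. Of the MYC genes, Myc was at 16.2, 3.41 and 2.72 CPM, Mycn at 20.9, 12.7 and 5.92 CPM, and Max, their partner, at 45.7, 37.9 and 37.0 CPM. Mycl stayed below 1 CPM in each library. Myc and Mycl did not pass the minimum of a mean of 10 CPM, and Myc had 102 UMIs at 3 h and 67 at 6 h.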

How the data were processed

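Polyadenylated RNA of single cells was measured in 3 libraries. The authors deposited matrices of UMI counts for each gene in each barcode. The file headers name Cell Ranger 7.1.0 and the submitters' processing notes name mm10. The annotation and the use of intronic reads are not given in the sources used here. The matrices are not filtered to cells.

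A barcode was called a cell if it had 500 genes or more, no more than 20% mitochondrial UMIs, and UMIs of at least 0.1 times the percentile 99 among the 3000 largest barcodes. No doublet caller was run, and leaving out cells above 2 times the median UMIs was an alternative. Cells were not clustered. UMIs were summed over cells, scaled to CPM and compared as log2 ratios of CPM + 1, with exact conditional binomial intervals of the ratio without the pseudocount. No test was run, since each group was 1 library. Genes were counted at 2-fold and 1.5-fold among those with a mean of at least 10 CPM. Alternatives covered the cell cut-off, scaling (TMM from edgeR 4.0.16), free RNA, cell weights, pseudocount and filter. For free RNA, an assumed 10% of the UMIs was subtracted, with the profile of all barcodes not called as cells. The true part of free RNA was not estimated. The statistics were tested on simulated data. Gene structure came from GENCODE M21, using the principal transcript, and promoters from RefSeq.

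All 36 members may be named. From the lists of other ribosome biogenesis genes, RNase P and RNase MRP subunits and RNA polymerase I genes, the 2 highest and 2 lowest ratios at each time were named, together with the MYC genes. Members and lists were chosen with earlier results of these data known. Work was done in R 4.3.3 and in Python 3.11.15 with matplotlib 3.10.9, scipy 1.17.1, pandas 2.3.3 and numpy 2.4.6.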

Additional observations from a re-analysis of the deposited data

Results flagged for a closer look

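For 6 members the log2 ratios were of opposite sign at 3 h and 6 h, with both counting intervals clear of 0 and the same signs with median-of-ratios and TMM factors. The difference between the time points was not tested. Opposite signs alone were found for 10 members and for 22.1% of all genes tested. The share of all genes that meets the full rule was not computed, so whether 6 members is unusual is not known. Ddx21 had -0.64 and 0.29, Mybbp1a -0.43 and 0.15, Rrp12 -0.42 and 0.31, and Nolc1 -0.36 and 0.24, all lower at 3 h and higher at 6 h. Nop58, with 0.19 and -0.06, and Brix1, with 0.09 and -0.23, went the other way.

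Barcodes outside the called cells, which the comparisons leave out, also held UMIs of the 36 genes. Of all UMIs in such barcodes, the 36 genes took 1.32% in the control (interval 1.312 to 1.326%). The 3 h library had 1.35% (1.345 to 1.365%) and the 6 h library 1.34% (1.334 to 1.355%), and both treated libraries lay above the control's interval. Inside cells the control was highest, at 1.66%, against 1.40% and 1.54%.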

How the results depend on the processing

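Scaling moved the values most. With median-of-ratios factors the members' median at 3 h turned from -0.11 to 0.12, with 1 member 2-fold higher (1.78% of all genes) and 3 members 1.5-fold lower (11.3%), and with TMM factors to 0.076, with 1 (1.6%) and 4 (13.5%). Between 6 h and 3 h these factors turned the median from 0.08 to -0.15 and -0.14, each with 2 members 2-fold lower (0.572% and 0.571%) and 1 member 1.5-fold higher (3% and 3.07%). At 6 h they gave -0.043 and -0.088, and median-of-ratios factors left 1 member 2-fold lower (4.01%). These factors moved the median of all genes by 0.23 and 0.19 at 3 h. UMIs per cell gave medians of -2.10, -2.66 and -0.48 at 3 h, at 6 h and between them. By that measure 36 members were 2-fold (98.7% of all genes) and 1.5-fold lower (99.5%) at 3 h, with 0 higher by 1.5-fold (0.114%), and 36 were lower by both rules at 6 h (99.2% and 99.6%). Between the treated libraries 2 were 2-fold lower (2.19%), 13 were 1.5-fold lower (22.2%) and 0 were 1.5-fold higher (0.647%). It also turned the called increases of Fbl to -1.20, Ddx56 to -0.91 and Rrp7a to -1.12 at 3 h, and of Ddx56 to -1.78, Rrp7a to -1.78, Utp20 to -1.86 and Ttf1 to -1.86 at 6 h.

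A minimum of 50 CPM left out Rpp38 and Rrp12, which gave a median of -0.072 and 0 members 2-fold lower at 3 h (3.06%), 1 at 6 h (2.42%), and between the treated libraries 0 members 2-fold lower (0.129%) and 1 member 1.5-fold lower (1.64%). Equal weight for cells gave medians of -0.085, -0.069 and 0.039, with 2 members 1.5-fold higher between the treated libraries (5.8%). Removal of free RNA, assumed to be 10% of the UMIs, gave a median of -0.068 at 6 h and 0.062 between 6 h and 3 h. Between these libraries the UMI minimum halved gave 0.066, doubled 0.11, and the 10% mitochondrial limit 0.10. Leaving out cells with many UMIs gave -0.12 at 3 h and 0 members 2-fold lower between the treated libraries (0.165%). Nip7, at -1.004 close to 2-fold, was lost at 6 h with the minimum doubled and with free RNA removed, which left 1 member (4.4% and 4.45%).

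The members' share of UMIs ranged over the choices of cells from 1.652% (equal weight) to 1.679% (free RNA removed) in the control, with 1.656% and 1.662% at the halved and doubled minimum, 1.661% with the mitochondrial limit and 1.665% without cells of many UMIs. At 3 h it was 1.389% with equal weight and 1.401% with free RNA removed, and at 6 h 1.524%, 1.553% and, with the minimum doubled, 1.549%. The cause of these shifts was not tested. No paired analysis was possible because each group was 1 library, and for the same reason no replicate could be left out. The control had the most UMIs, and the counting intervals were widest for Rpp38.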
